A study of Mus musculus with 12 samples.

Results

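The transcripts described here are those of 9 genes that make or remove the building blocks of DNA, the deoxynucleoside triphosphates (dNTPs): Rrm1, Rrm2, Rrm2b, Tk1, Tyms, Dck, Dctd, Dut and Samhd1. They were taken by name from 24343 genes measured by RNA-seq in HT22 cells, an immortalized neuronal line derived from mouse hippocampus. The 12 libraries formed 4 groups of 3 biological replicates. Cells labelled siControl received control siRNA at normal iron, and cells labelled siNCOA4 received siRNA against Ncoa4, the receptor that delivers ferritin to the lysosome for iron release. The siControl+DFO and siNCOA4+DFO groups received the same siRNAs and the iron chelator desferrioxamine (DFO) at 100 µM for 24 h. All groups were transfected with liposomes, so no group shows cells without siRNA, and the knockdown was partial. The comparisons ask how these genes respond when iron uptake is limited, when Ncoa4 is depleted, and when both apply.

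Ribonucleotide reductase removes an oxygen from ribonucleotides and is the step that limits the supply of dNTPs. The enzyme pairs a large catalytic subunit, RRM1, with a small subunit that holds an iron center and a tyrosyl radical, and the iron center is why chelators inhibit the enzyme. The small subunit is RRM2 in cells that replicate their DNA and RRM2B, a product of a p53-induced gene, in damaged or resting cells. Thymidylate is made by TYMS from dUMP, which DCTD and DUT provide, and nucleosides are recovered by the kinases TK1 and DCK. SAMHD1 works in the opposite direction and cleaves dNTPs back to nucleosides.

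Values are FPKM as deposited, a unit that scales fragments to transcript length and to the size of the library. How the scaling between libraries was done is not given. All 9 genes were listed above 0 in every library and passed the filter on low values, which asked for 0.5 FPKM or more in 3 or more libraries. Sequencing depth per library cannot be read from FPKM, so no counting interval is given. The limma test was run on log2(FPKM + 0.1) over 11924 genes, with Benjamini-Hochberg adjustment within each comparison, and a change was called at an adjusted p below 0.05. The p-values measure the spread between the biological replicates of these groups.

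Ncoa4 was 6.46, 6.19 and 6.02 FPKM in siControl and 0.770, 0.952 and 0.891 in siNCOA4. With DFO it was 8.70, 8.31 and 7.52 after control siRNA and 0.850, 1.29 and 1.57 after Ncoa4 siRNA, so the libraries given Ncoa4 siRNA all lay lower than those given control siRNA. The gene Gm6768 shares 41.4% of the 75-base windows of the Ncoa4 transcript. All 6 tested genes of a 7-gene list that responds to iron restriction rose in siControl+DFO, as did 27.7% of all genes. Among the 6, Tfrc, the transferrin receptor, rose by 2.22 on the log2 scale. In siNCOA4 cells DFO raised 5 of the 6, beside 23.1% of all genes. Under DFO, Ncoa4 siRNA lowered 3 of the 6 and raised 0, with 10.2% of all genes called lower. Ncoa4 siRNA without DFO lowered 3 of the 6: Ndrg1, a hypoxia and iron chelation responsive gene, at -0.85 (adjusted p = 0.00362, limma), the mitophagy receptor Bnip3 at -0.35 (0.0393) and the angiogenic factor Vegfa at -0.34 (0.0363). Only Ndrg1 of these passed without siControl replicate 1 or 2 or siNCOA4 replicate 1 or 2. Over all fits with 1 library left out, the Bnip3 call was lost in 8 (adjusted p up to 0.142, limma). The Vegfa call was lost in 5 (up to 0.135). With all libraries kept, they were lost in 3 and 5 of the alternative fits. Of all genes tested, 7.21% were called lower with Ncoa4 siRNA without DFO. Of 12 neuron markers, between 2 and 3 had a mean FPKM of at least 1 in a group and between 2 and 6 were at 0 throughout a group, so the neuronal label rests on few transcripts. Of 5 markers each for astrocytes, microglia and oligodendrocytes, at most 2, 1 and 1 had such a mean in a group. The astrocyte marker Slc1a3 had means of 42.2 FPKM in siControl and 3.595 in siControl+DFO, and the microglia marker Tmem119 10.7 and 0.78. All 5 mesenchymal markers (Col1a1, Col3a1, Dcn, Pdgfra and Vim) had a mean of at least 1 FPKM in every group. Their summed FPKM lay between 2196 and 2426 in siControl, 1795 and 1869 in siNCOA4, 1533 and 1592 in siControl+DFO, and 1353 and 1501 in siNCOA4+DFO. Most of each sum was Vim, with means of 1600, 1369, 1412 and 1193 FPKM in that order of groups. Col1a1, Col3a1, Dcn and Pdgfra instead had their lowest means in siControl+DFO. For Col1a1 the means were 383.3, 222.3, 94.2 and 119.3 FPKM, and for Col3a1 288.6, 225.4, 57.1 and 95.6. These 5 markers moved with the treatments, and their part in the changes below was not tested. In bulk RNA, fewer cells of a state and less RNA per cell cannot be told apart.

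The 9 genes lie on 7 chromosomes of GRCm38, the assembly that mm10 names, and all are protein coding in GENCODE M21. Rrm1 covers chr7:102441695-102469771 on the plus strand with 19 exons, Rrm2 chr12:24708241-24714146 on the plus strand with 10 exons, and Rrm2b chr15:37923952-37961318 on the minus strand with 9 exons. Tk1 lies at chr11:117815526-117826092 (minus, 7 exons), Tyms at chr5:30058202-30073617 (minus, 7 exons), Dck at chr5:88764996-88783281 (plus, 7 exons), Dctd at chr8:48099092-48153233 (plus, 6 exons), Dut at chr2:125247190-125258608 (plus, 6 exons) and Samhd1 at chr2:157097533-157135265 (minus, 16 exons). For Rrm1, Dck, Dctd, Dut and Samhd1 none of the 75-base windows of the longest coding transcript occurs in another gene. The share was 3.11% for Rrm2, 7.42% for Rrm2b, 3.15% for Tk1 and 5.50% for Tyms, and reads from those windows could have been assigned to other genes.

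The promoters of Rrm1, Rrm2 and Tk1 are shown because these genes stayed level, rose and fell with DFO. Each stretch holds the 120 bases that end before the 5′ end of the gene in GENCODE M21, read 5′ to 3′ on the strand of the gene in GRCm38.p6 (RefSeq promoter windows). That end is the RefSeq start for Rrm1 and lies 13 bases upstream of it for Rrm2 and 78 for Tk1, so the Tk1 stretch runs from -198 to -79 of the RefSeq start. Capitals mark CCAAT and the core of a hypoxia response element (ACGTG or GCGTG), on either strand.
Rrm1, chr7:102441575-102441694, plus strand: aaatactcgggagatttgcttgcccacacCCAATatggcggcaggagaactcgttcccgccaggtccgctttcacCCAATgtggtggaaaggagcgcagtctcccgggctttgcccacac
Rrm2, chr12:24708121-24708240, plus strand: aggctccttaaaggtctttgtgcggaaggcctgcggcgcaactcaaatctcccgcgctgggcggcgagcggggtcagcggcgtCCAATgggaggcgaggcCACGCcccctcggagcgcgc
Tk1, chr11:117826093-117826212, minus strand: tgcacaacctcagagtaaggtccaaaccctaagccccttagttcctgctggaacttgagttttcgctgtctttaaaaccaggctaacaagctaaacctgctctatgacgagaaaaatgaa

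In the 250 bases before the RefSeq start, Rrm1 held CCAAT at positions -91 and -45, and Rrm2 held it at -50, counted from that start. Dctd, with several RefSeq starts, held it at -27 of the start at 48109958 and at -82 of that at 48110013. CCAAT occurs in 33.8% of 32851 promoters of that length. Rrm2 also held the hypoxia response core at -33, which 38.6% of promoters hold, as did Dut, Samhd1, Tyms and 1 of the Dctd starts. An E2F site (TTTCCCGC, TTTCGCGC, TTTGCCGC or TTTGGCGC), present in 1.90% of promoters, was found before none of the starts of the 8 genes with a window. A cell cycle homology region (TTTGAA or TTCGAA), present in 17.1%, was found once, at -245 of Dck. Tk1 held none of these letters, and the table has no window for Rrm2b.

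The large subunit stayed level while both small subunit genes rose with DFO. Rrm1 was 79.4, 80.4 and 73.3 FPKM in siControl, 76.8, 76.5 and 77.9 in siNCOA4, 80.1, 78.9 and 73.9 in siControl+DFO, and 77.5, 74.3 and 71.4 in siNCOA4+DFO. The 4 groups overlapped. DFO gave a fold of 0.999 with control siRNA (95% interval 0.906 to 1.10), and Ncoa4 siRNA a fold of 0.992 without DFO (0.901 to 1.09) and 0.958 with it (0.870 to 1.06). None of the comparisons called Rrm1, with an adjusted p of 0.985 for DFO in siControl cells (limma, Benjamini-Hochberg).

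Rrm2, the small subunit of replicating cells, gave the largest change among the 9 genes in siControl+DFO. Its FPKM was 44.3, 46.6 and 43.4 in siControl, 40.1, 44.0 and 40.6 in siNCOA4, 131.9, 135.5 and 127.0 in siControl+DFO, and 106.2, 94.6 and 79.8 in siNCOA4+DFO. Every DFO library lay above every library without DFO, and the siNCOA4+DFO libraries lay below all siControl+DFO libraries. Rrm2 rose by 1.55 on the log2 scale in siControl+DFO (standard error 0.09, adjusted p = 7.07e-08, limma), a fold of 2.93 with a 95% interval of 2.55 to 3.38. In siNCOA4 cells DFO raised it by 1.16 (adjusted p = 1.8e-06, limma), a fold of 2.24 (1.94 to 2.57). Under DFO, Ncoa4 siRNA lowered Rrm2 by a log2 change of -0.50 (adjusted p = 0.00422), whereas without DFO the change was -0.11 (adjusted p = 0.507, limma). The test of the difference between these siRNA effects gave -0.39 (95% interval -0.68 to -0.11, unadjusted p = 0.0114, limma) and did not pass adjustment (adjusted p = 0.137).

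Rrm2b, the p53-induced small subunit, was expressed at a lower level and moved less. It was 6.89, 5.13 and 6.39 FPKM in siControl, 7.73, 9.19 and 7.32 in siNCOA4, 13.0, 10.5 and 10.9 in siControl+DFO, and 9.37, 10.6 and 12.7 in siNCOA4+DFO. The siNCOA4 libraries lay between the siControl and the DFO libraries, and the 2 DFO groups overlapped. With control siRNA, DFO raised Rrm2b by 0.90 on the log2 scale (standard error 0.15, adjusted p = 3.75e-04, limma). In siNCOA4 cells the rise was 0.42 (standard error 0.15, adjusted p = 0.0431, limma). That call was lost without siNCOA4 replicate 1 (adjusted p = 0.109, limma) or 3 (0.141), without siNCOA4+DFO replicate 2 (0.0825) or 3 (0.146), without siControl replicate 3 (0.0522), and without siControl+DFO replicate 2 (0.0503) or 3 (0.0542). Without DFO, Rrm2b was 0.40 higher in siNCOA4 than in siControl on that scale, with an unadjusted p of 0.0246 and an adjusted p of 0.123 (limma).

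**Figure D1:**
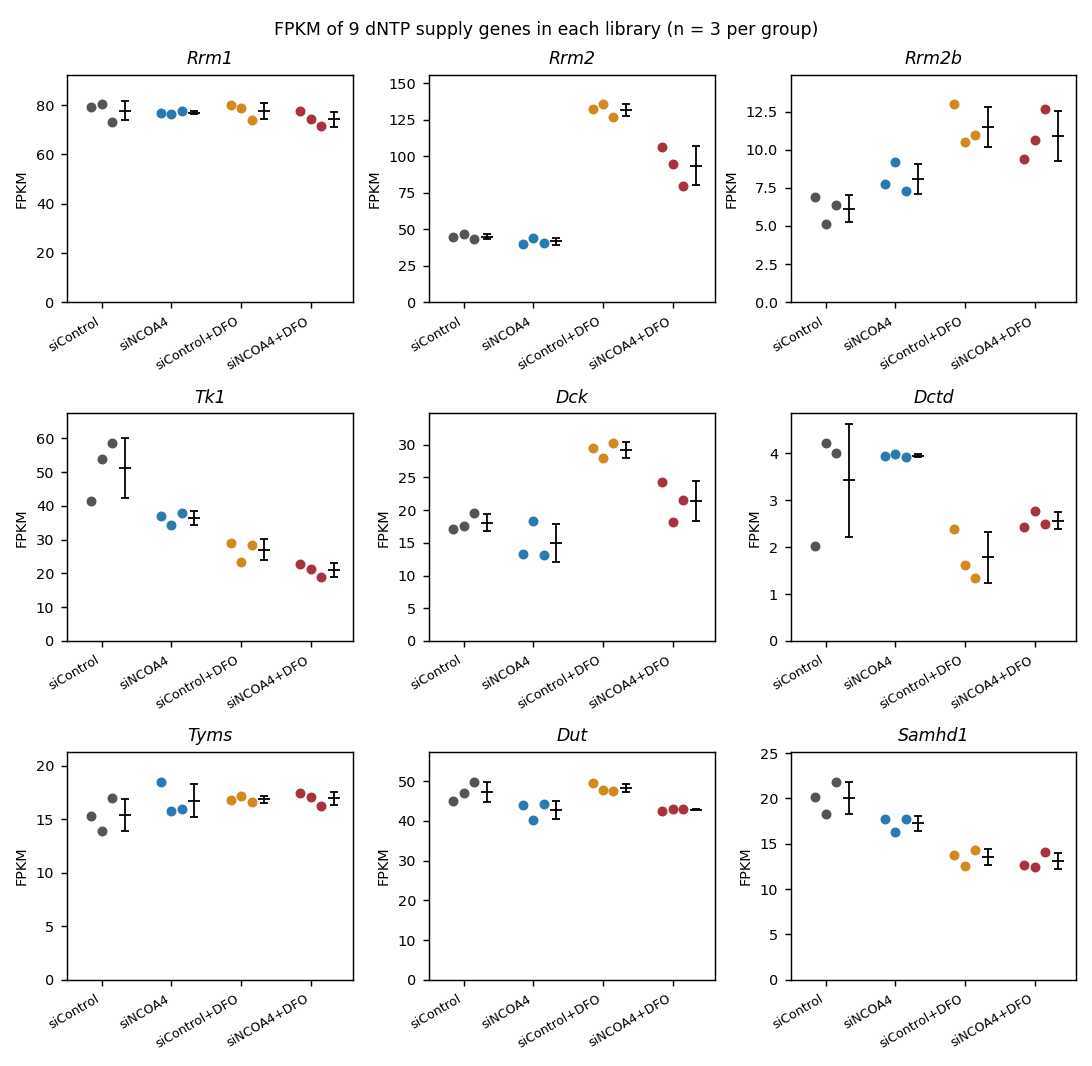
Each panel shows 1 gene, with FPKM on the y axis from 0 and the 4 groups on the x axis; colored points are libraries (n = 3 per group), and the black mark with its bar is the mean and SD. Rrm2 and Dck are highest in siControl+DFO, Tk1 and Samhd1 are lower in both DFO groups than without DFO, and Rrm1, Tyms and Dut vary little across the groups.

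The balance between the subunit genes shifted accordingly. FPKM is scaled to transcript length, and on that basis levels of the 3 genes are set against each other. Other differences between genes in how well their reads are recovered were not tested. The log2 ratio of Rrm2 to Rrm1 was -0.80 ± 0.04 in siControl (SD, n = 3), -0.89 ± 0.08 in siNCOA4, 0.76 ± 0.04 in siControl+DFO and 0.32 ± 0.15 in siNCOA4+DFO, so Rrm2 passed from below Rrm1 to above it in all 6 DFO libraries. DFO raised this ratio by 1.39 on average over both siRNAs (two-sided exact permutation test within siRNA, p = 0.005, the smallest the 400 arrangements allow, adjusted p = 0.01 over 4 tests). Ncoa4 siRNA changed it by -0.27 on average (exact permutation p = 0.01, adjusted p = 0.01), of which the difference was -0.10 without DFO and -0.44 with it. The summed FPKM of Rrm2 and Rrm2b was 50.9 ± 0.99 in siControl, 49.6 ± 3.1 in siNCOA4, 142.9 ± 4.4 in siControl+DFO and 104.4 ± 11.6 in siNCOA4+DFO.

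Although Rrm2b rose with DFO, its share of that sum became smaller. Rrm2b made up 12.1 ± 1.9% of the summed FPKM in siControl, 16.2 ± 1.0% in siNCOA4, 8.03 ± 0.89% in siControl+DFO and 10.6 ± 2.8% in siNCOA4+DFO. Averaged over both siRNAs, DFO changed the share by -4.83 percentage points (exact permutation p = 0.005, adjusted p = 0.01). Ncoa4 siRNA changed it by 3.39 points (exact permutation p = 0.01, adjusted p = 0.01), 4.18 points without DFO and 2.61 with it. The siNCOA4+DFO libraries spanned 8.10 to 13.7% and overlapped those of siControl+DFO, which spanned 7.19 to 8.96%.

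**Figure D2:**
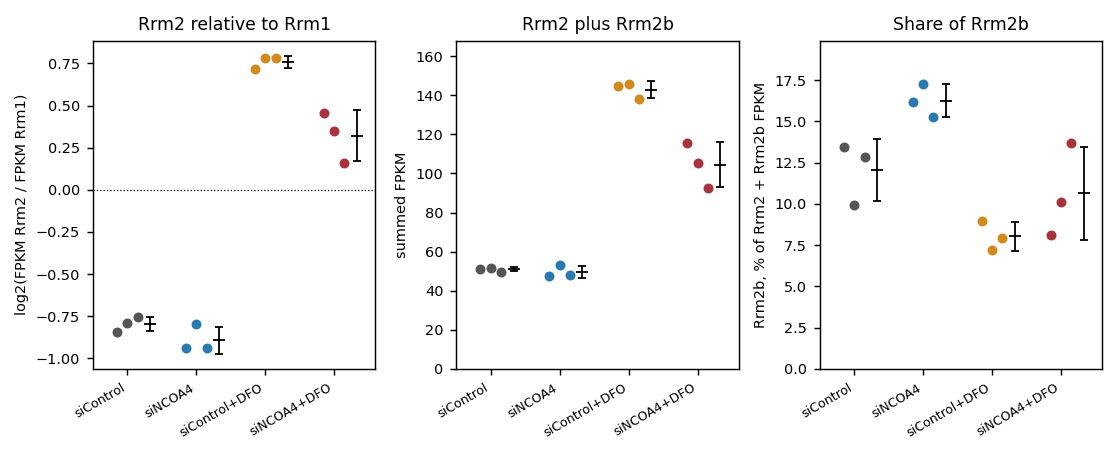
The y axes show the log2 ratio of Rrm2 to Rrm1 FPKM (left, dotted line at equal levels), the summed FPKM of Rrm2 and Rrm2b (middle) and the percentage of that sum that was Rrm2b (right), by group on the x axis; points are libraries and black marks are mean and SD (n = 3). The ratio lies below 0 in the 6 libraries without DFO and above 0 in the 6 with DFO, and the share of Rrm2b is highest in siNCOA4, at 16.2%.

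Of the salvage kinases, Tk1 fell and Dck rose with DFO. Tk1, the thymidine kinase of the cytosol that is normally abundant in S phase, was 41.5, 53.7 and 58.6 FPKM in siControl, 37.0, 34.2 and 37.95 in siNCOA4, 29.1, 23.5 and 28.5 in siControl+DFO, and 22.9, 21.2 and 18.9 in siNCOA4+DFO. No libraries of different groups overlapped, and the groups descended in that order. The log2 change was -0.91 with DFO in siControl cells (standard error 0.13, adjusted p = 8.02e-05, limma) and -0.79 in siNCOA4 cells (adjusted p = 3.59e-04). In siNCOA4+DFO relative to siControl it was -1.27 (adjusted p = 6.97e-06, limma), a fold of 0.414. Tk1 was the only one of the 9 genes called for Ncoa4 siRNA without DFO, at -0.48 (standard error 0.13, adjusted p = 0.0321, limma). That call was lost without siControl replicate 2 (adjusted p = 0.1, limma) or 3 (0.107) and without siNCOA4 replicate 1 (0.0710), 2 (0.114) or 3 (0.0661). Under DFO the siRNA difference of -0.36 did not pass (adjusted p = 0.0747), but did without siControl replicate 1 (adjusted p = 0.0322, limma).

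Dck, which phosphorylates deoxycytidine, deoxyadenosine and deoxyguanosine, was 17.1, 17.6 and 19.6 FPKM in siControl, 13.3, 18.4 and 13.2 in siNCOA4, 29.5, 27.9 and 30.2 in siControl+DFO, and 24.4, 18.2 and 21.5 in siNCOA4+DFO. All siControl+DFO libraries lay above the other 9. Dck rose by 0.69 with DFO in siControl cells (standard error 0.14, adjusted p = 0.00104, limma) and by 0.52 in siNCOA4 cells (adjusted p = 0.00873), where the groups overlapped by 1 library. Under DFO it was lower with Ncoa4 siRNA, at a log2 change of -0.46 (adjusted p = 0.0396, limma). That call was lost without siControl replicate 2 (adjusted p = 0.0530, limma), siControl+DFO replicate 1 (0.0952), 2 (0.0737) or 3 (0.0981), or siNCOA4+DFO replicate 2 (0.127) or 3 (0.0823). Without DFO the siRNA difference was -0.29 (adjusted p = 0.208, limma).

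The thymidylate branch did not move as a unit. Tyms, thymidylate synthase, was 15.3, 13.9 and 17.0 FPKM in siControl, 18.5, 15.7 and 15.9 in siNCOA4, 16.8, 17.2 and 16.6 in siControl+DFO, and 17.5, 17.0 and 16.3 in siNCOA4+DFO, with overlap between all groups. Its fold with DFO was 1.10 in siControl cells (95% interval 0.951 to 1.27) and 1.02 in siNCOA4 cells (0.880 to 1.17). Dut, which cleaves dUTP to dUMP and keeps uracil out of DNA, was 44.9, 47.1 and 49.8 FPKM in siControl, 44.0, 40.2 and 44.1 in siNCOA4, 49.4, 47.8 and 47.6 in siControl+DFO, and 42.6, 43.0 and 43.0 in siNCOA4+DFO. Both siNCOA4 groups lay below both siControl groups, with folds of 0.906 (95% interval 0.820 to 1.00) without DFO and 0.888 (0.804 to 0.980) with it, and neither passed (adjusted p = 0.191 and 0.0936, limma). The fold of Dut with DFO was 1.02 in siControl cells (0.926 to 1.13).

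Dctd, the deaminase that turns dCMP into dUMP, had the lowest level of the 9 genes in every group. It was 2.04, 4.22 and 4.02 FPKM in siControl, 3.94, 3.99 and 3.93 in siNCOA4, 2.38, 1.61 and 1.35 in siControl+DFO, and 2.43, 2.77 and 2.49 in siNCOA4+DFO. A single siControl library, replicate 1, lay among the DFO libraries. The log2 change with DFO in siControl cells was -0.87 (standard error 0.27, adjusted p = 0.0169, limma). Without siControl replicate 2 or 3 or siControl+DFO replicate 3 the adjusted p was 0.0748, 0.0694 and 0.0686 (limma), and in a fit of the compared groups alone it was 0.0646. In siNCOA4 cells the change was -0.61 (adjusted p = 0.0924, limma). Without siControl replicate 1 this change passed (adjusted p = 0.0308, limma), as did that of siNCOA4+DFO relative to siControl, which was then -0.67 (adjusted p = 0.0319) and otherwise -0.34 (adjusted p = 0.328).

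Samhd1, the dNTP triphosphohydrolase, fell with DFO. Its FPKM was 20.2, 18.3 and 21.8 in siControl, 17.8, 16.3 and 17.7 in siNCOA4, 13.8, 12.5 and 14.3 in siControl+DFO, and 12.7, 12.4 and 14.1 in siNCOA4+DFO. Every DFO library lay below every library without DFO, and the 2 DFO groups overlapped. The log2 change was -0.57 in siControl cells (standard error 0.10, adjusted p = 3.4e-04, limma) and -0.40 in siNCOA4 cells (adjusted p = 0.00503). Without DFO the siNCOA4 libraries lay below the siControl libraries by -0.21 on that scale, which did not pass (adjusted p = 0.177, limma).

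**Figure D3:**
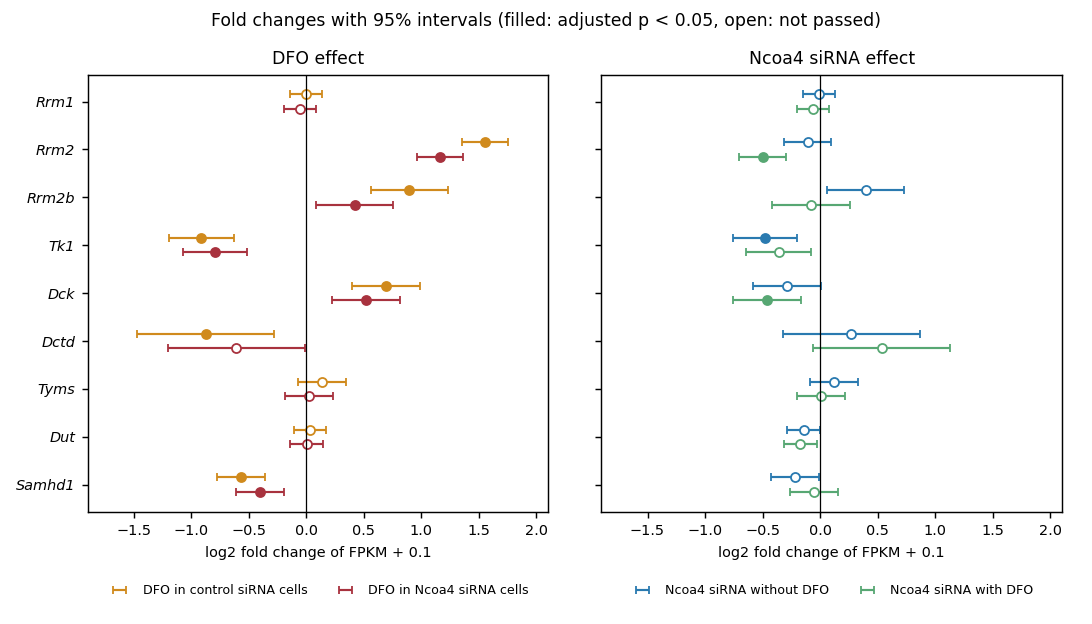
The x axes show log2 fold changes of FPKM + 0.1 for the 9 genes on the y axis, with DFO effects in the left panel and Ncoa4 siRNA effects in the right; bars are 95% intervals, not adjusted for the number of genes, and filled points had an adjusted p below 0.05. DFO effects span -0.91 to 1.55 in siControl cells and have the same sign in siNCOA4 cells for every filled point.

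Counted over the 9 genes, DFO in siControl cells raised 3 (Rrm2, Rrm2b and Dck) and lowered 3 (Tk1, Dctd and Samhd1). Over all 11924 genes tested, 53.4% were called in that comparison, 27.7% higher and 25.7% lower, so the 66.7% of the 9 that passed stood against a background in which most genes moved. Only Rrm2 also changed by more than 2-fold, against 18.8% of all genes. The count past 2-fold was 3 without siControl replicate 1 and 2 without siControl+DFO replicate 1. The median log2 change of the 9 genes was 0.03, beside -0.01 over all genes. In siNCOA4 cells DFO raised 3 (Rrm2, Rrm2b and Dck) and lowered 2 (Tk1 and Samhd1) of the 9, with 42.7% of all genes called, 23.1% higher and 19.6% lower. Rrm2 was past 2-fold there, as were 11.4% of all genes.

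Ncoa4 siRNA without DFO lowered 1 of the 9 genes, Tk1, and raised none by limma. Unadjusted p-values (limma) were 0.00288 for Tk1, 0.0246 for Rrm2b and 0.0444 for Samhd1. The share of all genes with an unadjusted p below 0.05 was not counted. Over the whole transcriptome, 11.7% of genes were called, 4.52% higher and 7.21% lower, and 1.78% were also past 2-fold, none of them among the 9. Under DFO the siRNA lowered 2 of the 9, Rrm2 and Dck, against 16.5% of all genes called, 6.22% higher and 10.2% lower. None of the 9 was past 2-fold, a threshold that 2.09% of all genes passed. That count of 2 became 1 without any of the 6 libraries named above for Dck and 3, with Tk1, without siControl replicate 1.

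Relative to siControl, siNCOA4+DFO raised 2 of the 9 genes (Rrm2 by 1.05 and Rrm2b by 0.82) and lowered 2 (Tk1 at -1.27 and Samhd1 at -0.61). Of all genes 48.8% were called, 25.4% higher and 23.4% lower, and 15.2% were also past 2-fold. Rrm2 and Tk1 were past 2-fold, Rrm2 no longer so without siNCOA4+DFO replicate 1 (log2 change 0.96). Dck, which rose with DFO in siControl cells, was at 0.23 in this comparison (adjusted p = 0.178, limma). The comparisons share the siControl libraries. In the test of the difference between the siRNA effects with and without DFO, 0 of the 9 genes passed (limma), against 2.1% of all genes. The unadjusted p (limma) was 0.0114 for Rrm2, at -0.39, and 0.0499 for Rrm2b, at -0.47. The share of all genes below 0.05 before adjustment was not counted here either.

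The order of the levels changed with DFO at the top and in the middle. In siControl the mean FPKM ran from Rrm1 (77.7) through Tk1 (51.3), Dut (47.2), Rrm2 (44.8), Samhd1 (20.1), Dck (18.1), Tyms (15.4) and Rrm2b (6.14) to Dctd (3.43). The libraries of Tk1 and Dut, of Dut and Rrm2, and of Samhd1 and Dck overlapped, so these neighbors were not separated. In siControl+DFO the order was Rrm2 (131.5), Rrm1 (77.6), Dut (48.3), Dck (29.2), Tk1 (27.0), Tyms (16.9), Samhd1 (13.5), Rrm2b (11.5) and Dctd (1.78), with overlap of Dck with Tk1 and of Samhd1 with Rrm2b. The siNCOA4+DFO group had the same order of genes and the same overlaps. In siNCOA4 Rrm1 led as in siControl, and Tk1, at 36.4, stood below Dut (42.8) and Rrm2 (41.5).

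Enzymes of the folate cycle that supplies TYMS rose with DFO although Tyms itself was not called. In siControl+DFO, Shmt2, the mitochondrial serine hydroxymethyltransferase, rose by 0.99 on the log2 scale (adjusted p = 3.96e-06, limma), the folate interconversion enzyme Mthfd1 by 0.70 (4.04e-04) and the cytosolic Shmt1 by 0.53 (0.00788). Without DFO, Ncoa4 siRNA gave changes of -0.17 for Shmt2 (adjusted p = 0.289, limma), -0.07 for Mthfd1 (0.768) and -0.45 for Shmt1 (0.066), of which none passed. Shmt1 passed without siNCOA4+DFO replicate 3 (adjusted p = 0.0104, limma) and with the compared groups fitted alone (0.0371).

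Over all genes tested, siControl+DFO raised 27.7% and lowered 25.7%, so 53.4% were called. Of 17 tested genes for ribonucleotide synthesis, the source of substrates for the reductase, 5 rose and 6 fell there (64.7%). The falls of largest size were in Ctps2, a CTP synthase (-0.96, adjusted p = 2.26e-05, limma), the pyrimidine pathway enzyme Dhodh (-0.72, 0.00993) and Impdh2 of guanine nucleotide synthesis (-0.59, 1.85e-04). Of 9 tested nucleotide kinases, 1 rose and 3 fell (44.4%). The riser was Ak1, a cytosolic adenylate kinase, from 32.3 ± 2.3 to 108.4 ± 6.9 FPKM (mean ± SD, n = 3; log2 change 1.74, adjusted p = 5.44e-08, limma), and Nme1, a nucleoside diphosphate kinase, fell by 0.45 (0.00669). The low gene Nme3 was at -0.52 with a standard error of 1.45.

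Among 13 genes for other salvage steps and nucleoside transport, 6 rose and 3 fell with DFO in siControl cells (69.2%, beside 53.4% of all genes). The equilibrative nucleoside transporters went opposite ways: Slc29a1 fell from 37.4 ± 2.0 to 12.7 ± 0.91 FPKM (log2 change -1.55, adjusted p = 9.41e-08, limma) and Slc29a2 rose by 1.05 (0.00429). Slc25a33, a carrier of pyrimidine nucleotides into mitochondria, rose by 1.32 (adjusted p = 5.74e-06, limma). Of 12 tested genes for dephosphorylation, phosphorolysis and cleaning of the pool, 2 rose and 5 fell (58.3%). Upp1, uridine phosphorylase, rose from 1.14 ± 0.29 to 11.8 ± 1.7 FPKM (log2 change 3.28, adjusted p = 5.61e-07, limma), the largest change in this list, whereas Dnph1, which hydrolyzes modified deoxynucleotides, fell by 0.96 (0.00326).

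Of 13 partners and regulators of the reductase, 7 rose and 3 fell with DFO in siControl cells (76.9%, beside 53.4% of all genes). Fzr1, an activator of the ubiquitin ligase that removes RRM2 protein as cells leave mitosis, fell from 21.8 ± 1.1 to 8.64 ± 0.25 FPKM (log2 change -1.32, adjusted p = 5.89e-07, limma). Ccnf, cyclin F, part of another ubiquitin ligase that removes RRM2, rose from 29.5 ± 2.1 to 44.1 ± 3.4 FPKM (log2 change 0.58, adjusted p = 0.00223, limma). Of the electron donors, glutaredoxin (Glrx) fell from 9.76 ± 2.3 to 3.499 ± 1.5 FPKM (adjusted p = 0.00141, limma) and thioredoxin reductase (Txnrd1) rose by 0.87 (2.21e-05), while thioredoxin itself (Txn1) fell from 307.3 ± 53.7 to 202.5 ± 10.6 FPKM (log2 change -0.59, adjusted p = 0.000688, limma). In the same comparison 10 of 18 S phase genes rose and 3 fell (72.2%), with a median of 0.38. Ccne2, cyclin E2, rose by 1.93 (adjusted p = 2.63e-08, limma), and the replication licensing genes Cdt1 and Cdc6 rose by 1.04 (1.41e-05) and 0.99 (2.86e-06), while Tk1, often listed with such genes, fell.

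Rrm2b is listed with p53 targets. Of 10 other p53 targets, 9 rose with DFO in siControl cells, against 27.7% of all genes, with a median log2 change of 2.44. Mdm2, which targets p53 for degradation, rose by 6.47 (adjusted p = 3.2e-11, limma), Trp53inp1 by 4.91 (4.18e-10) and the cell cycle inhibitor Cdkn1a by 4.89 (6.53e-10). Sesn1 was the 1 that fell, from 15.3 ± 1.3 to 5.99 ± 0.89 FPKM. The change of Rrm2b, 0.90, was smaller than that of the 9 risers, of which Bax, at 1.04, was nearest. Without DFO, Ncoa4 siRNA raised 6 of the 10, against 4.52% of all genes. They were led by Cdkn1a at 1.82 (adjusted p = 2.45e-05, limma), Eda2r at 1.59 (1.47e-06) and Ccng1 at 1.39 (7.04e-06).

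For Ncoa4 siRNA without DFO, the remaining lists were called in shares of 11.1 to 33.3%, beside 11.7% of all genes. Of the salvage and transport genes 3 of 13 (23.1%) fell, among them Uck2, a uridine and cytidine kinase, by -0.82 (adjusted p = 4.22e-04, limma) and Slc29a1 by -0.59 (0.00245). The third, cytidine deaminase Cda, fell by 1.54 (adjusted p = 0.0166, limma), a call lost without siControl replicate 2 (0.0608) or siNCOA4 replicate 3 (0.0673). Of the 18 S phase genes 2 rose and 4 fell (33.3%), led by Ccne1 at -1.31 (adjusted p = 6.67e-05, limma), Ccne2 at 0.77 (4.76e-04) and Mcm7 at -0.61 (5.9e-04), and the count of 6 was 3 without siControl replicate 3 or siNCOA4 replicate 2. Of the 9 kinases 1 passed (11.1%), Ak1, which rose by 0.61 (adjusted p = 0.00248, limma). In ribonucleotide synthesis 4 of 17 (23.5%) fell, led by Cad, which starts pyrimidine synthesis, at -0.61 (adjusted p = 0.0157, limma), and 0 did without siControl replicate 1 or siNCOA4 replicate 2, 1 without siNCOA4 replicate 1 and 2 without siControl+DFO replicate 3. Of the pool cleaning genes 2 of 12 (16.7%) rose, which was 0 without siNCOA4 replicate 1 and 1 without siControl replicate 2 or 3, siNCOA4 replicate 2 or 3 or siControl+DFO replicate 2. Of the reductase partners 2 of 13 (15.4%) fell, which became 1 or 0 without any library of siControl, siNCOA4 or siControl+DFO.

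**Figure D4:**
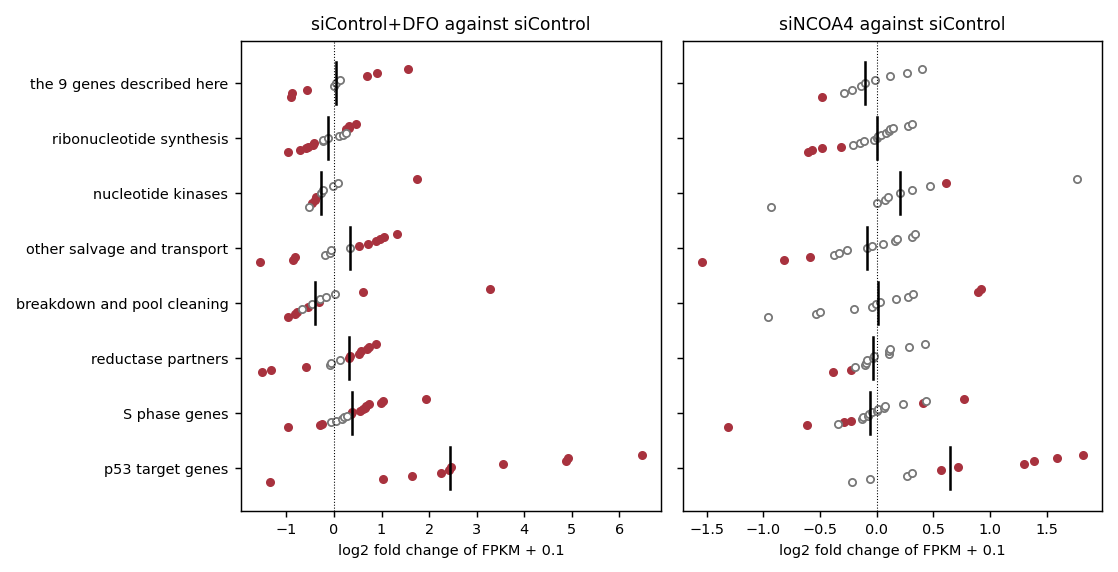
The x axes show log2 fold changes of FPKM + 0.1 for single genes, by list on the y axis, for siControl+DFO against siControl (left) and siNCOA4 against siControl (right, a narrower axis); filled points had an adjusted p below 0.05, open points did not, and black bars are medians. With DFO the p53 target list has a median of 2.44, while the 9 genes spread to both sides around a median of 0.03.

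Other genes with a similar pattern over the 12 libraries were sought for Rrm2, Rrm2b and Samhd1 among 8573 tested genes with a mean of at least 5 FPKM, by the root mean square difference of centered log2 values. For Rrm2 the nearest were Zbtb43 (0.10), Mlkl (0.10) and B630005N14Rik (0.10), against a median of 0.75 over all genes. Mlkl, the effector of necroptosis, had group means of 37.8, 37.1, 121.1 and 91.7 FPKM in siControl, siNCOA4, siControl+DFO and siNCOA4+DFO, beside 44.8, 41.5, 131.5 and 93.5 for Rrm2. For Rrm2b the nearest were Casp8ap2 (0.12), Birc2 (0.12) and Arhgap12 (0.13), against a median of 0.48. For Samhd1 they were Arf6 (0.07), catalase (Cat, 0.09) and Aurkb (0.09), against 0.37. These are descriptions over libraries that share their treatments.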

How the data were processed

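Total RNA of 12 HT22 libraries was made into stranded low-input libraries sequenced as pairs of 75 bases. For each library the authors deposited 1 table of FPKM per gene. The submitters' processing notes name Trimmomatic 0.33, FastQC, HISAT2 2.1.0, featureCounts, edgeR and the build mm10, and the tool that gave the FPKM is not given in the sources used here. Of 24347 entries, 4 that share a name were left out. The FPKM summed to between 565558 and 599095 per library in siNCOA4 and between 615784 and 627826 in siControl. With DFO the sum was 676428 to 723077 in siControl+DFO and 691486 to 737313 in siNCOA4+DFO, so it followed the treatment. Median-of-ratios factors lay between 0.997 and 1.01. The alternative that scales by these factors could therefore change the values only little, and its agreement with the main fit is a weak check. Depth per library is unknown.

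A means model of the 4 groups was fitted over all 12 libraries with limma 3.58.1 in R 4.3.3 on log2(FPKM + 0.1), with a mean-variance trend, 8 residual and 4.07 prior degrees of freedom. The pseudocount understates changes of low genes. Since the values are not counts, no count test was used. Subunit ratios were compared by exact permutation tests in scipy 1.17.1 with Python 3.11.15. Genes were named by a rule: the 9 genes and Ncoa4, from each list at most the 3 with the largest absolute change with DFO in siControl cells and with Ncoa4 siRNA, and the 3 nearest profiles. Bax, Ccnf, Txn1, Vegfa and, for Ncoa4 siRNA, Mthfd1 were added to complete a comparison, and Sesn1 as the exception of its list, after their values were seen. Counts over the folate cycle list are not reported here. The 9 genes and the lists were chosen with earlier results of these data known. The fit was tested on simulated data. Alternatives were pseudocounts of 1 and 0.01, no filter or one at 2 FPKM, quantile or median-of-ratios scaling, a replicate block, moderation without a trend or robust, the compared groups alone, and leaving out each library.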

Additional observations from a re-analysis of the deposited data

Results flagged for a closer look

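None of the 9 genes passed here, but 8 named genes of the supporting lists had DFO effects that differed between siNCOA4 and siControl cells by the interaction term (limma, adjusted p below 0.05). Of all genes, 2.1% were called. The named genes were picked for large changes with DFO or Ncoa4 siRNA alone. Those changes enter the interaction with the opposite sign, so neither the count nor the signs are an independent result. Given as the siRNA effect with DFO minus that without it, on the log2 scale, the differences were -2.24 for Cdkn1a, -1.51 for Mdm2, -1.49 for Eda2r, -1.39 for Trp53inp1 and -1.03 for Ccng1, all p53 targets, -1.04 for cyclin E2 (Ccne2), -0.84 for the adenylate kinase Ak1 and 0.76 for the nucleoside transporter Slc29a1. With DFO, the Cdkn1a mean was 445.0 ± 19.2 FPKM after control siRNA and 340.1 ± 83.6 after Ncoa4 siRNA (SD, n = 3), and without DFO it was 15.03 ± 1.98 and 53.2 ± 2.9. The same difference was -0.47 for Rrm2b, with an adjusted p of 0.275. Groups of 3 libraries are too small for a test of single outlying libraries.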

How the results depend on the processing

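Recomputing each of the 18 calls of single genes among the 9 under every alternative gave 396 values in all. Of these values, 360 kept direction and call, 36 lost the call and 0 reversed. They include fits that left out a library of neither compared group. Those lost were of Tk1 for Ncoa4 siRNA, Dck for Ncoa4 siRNA under DFO, Rrm2b for DFO in siNCOA4 cells and Dctd for DFO in siControl cells, with adjusted p up to 0.114, 0.127, 0.146 and 0.0748. The count of 1 for Ncoa4 siRNA without DFO was 0 with no filter, with the replicate block, without a trend and with the compared groups alone, and 0 to 1 with 1 library left out. The count of 2 under DFO was 1 in those fits and with quantile scaling, and 1 to 3 with 1 library left out. For DFO in siNCOA4 cells the count of 5 was 4 to 5 with all libraries kept and 4 to 6 with 1 left out. There the Rrm2b call was lost with no filter (adjusted p = 0.0616, limma), quantile scaling (0.0718) and the replicate block (0.0657). It was also lost without a trend (0.0501) and with the compared groups alone (0.0598). With quantile scaling 2 genes were past 2-fold for DFO in siControl cells, and 1 to 3 with 1 library left out, and for siNCOA4+DFO against siControl this count was 1 to 2. Values that reversed were all uncalled: Rrm1 for Ncoa4 siRNA was 0.0 with median-of-ratios and 0.03 with quantile scaling, which also gave Rrm1 0.081 under DFO and 0.051 for the interaction, Tyms -0.07 and Dut -0.036 for DFO in siNCOA4 cells, and Dut -0.082 for DFO in siControl cells and 0.046 for the interaction. The cause was not tested. With 1 library left out, signs changed for uncalled values only, over -0.053 to 0.014 (Rrm1) and -0.057 to 0.451 (Dctd) for Ncoa4 siRNA, -0.043 to 0.033 (Rrm1), -0.004 to 0.07 (Dut) and -2.014 to 0.723 (Nme3) for DFO in siControl cells, -0.018 to 0.096 (Tyms) and -0.041 to 0.027 (Dut) for DFO in siNCOA4 cells, -0.192 to 0.023 (Rrm2b) and -0.017 to 0.035 (Tyms) for Ncoa4 siRNA under DFO, and -0.073 to 0.008 (Dut) for the interaction. The number of all genes called for the interaction was 250 and lay between 157 and 282 with all libraries kept, and for Ncoa4 siRNA under DFO it was 1963, between 1149 and 2031.

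Same-numbered libraries showed no shared deviation beyond that of other pairs. Their correlations of deviations from group means, across genes, lay between -0.127 and 0.116 (median -0.012), and those of other pairs between -0.174 and 0.162. The labels give replicate numbers but no pairing, and 3 libraries per group cannot settle whether same-numbered libraries were handled together. With the replicate block the siNCOA4 effect on the Rrm2b share, 3.39 points, had an exact p of 0.0625, and the calls of Tk1, Dck and Rrm2b named above were lost (adjusted p = 0.0533, 0.0656 and 0.0657, limma). It ended no other call of the 9 genes. Depth is unknown, so no limit of detection can be given.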
